A study of Mus musculus with 2 samples.

Results

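The insulin-like growth factor (IGF) axis was examined in mouse hepatoblasts, the progenitors of hepatocytes and bile duct cells, that had been given either Srf or EGFP. It was taken as 10 genes, namely the ligand Igf2, the receptors Igf1r and Igf2r, and the binding proteins Igfbp1 to Igfbp7. A gene was included if the platform annotation tied a probe set to its symbol and to no other, and all 10 of the listed genes met this, with 1 probe set each, out of 22180 genes named in this way. The cells were primary cultures from fetal liver. The tested culture received Srf, a transcription factor of cytoskeletal and immediate-early genes, from a retrovirus, and the control culture received EGFP, a fluorescent protein, in the same way. Per the methods, infected cells were selected with puromycin for analyses of this kind. Neither the promoter in front of the transgenes nor the day of harvest is stated. Clonal expansion and a Nanog-GFP transgene are described for hepatoblasts of the study, and the labels do not say whether these cultures were of that kind.

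There was 1 whole-transcript array for Srf and 1 for EGFP. Replicate cultures were therefore lacking, differences carry no p-value, and precision is limited by how few arrays there are. Values are log2 signals per probe set, and a difference is the Srf array minus the EGFP array. Both cultures were kept in the same medium, which the labels give as containing 1 µg/ml insulin, 100 nM dexamethasone, 10 mM nicotinamide, β-mercaptoethanol, 50 ng/ml HGF and 20 ng/ml EGF with 10% fetal bovine serum. Insulin and glucocorticoids are both known regulators of Igfbp1 in liver, and serum carries IGFs of its own.

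IGFs are secreted peptides related to insulin. They act through Igf1r, a receptor tyrosine kinase that signals to the PI3 kinase and Akt pathway, whereas Igf2r, which is also the cation-independent mannose 6-phosphate receptor, takes up Igf2 and delivers it to lysosomes. Outside the cell most IGF is held by binding proteins, which prolong its life and either withhold it from the receptor or release it when they are cleaved. Igf2 is the main IGF of the fetus and is transcribed from the paternal allele, and the fetal liver is one of its chief sources. Igfbp1 and Igfbp2 are made by hepatocytes, and Igfbp3 is the main carrier of IGF in adult serum.

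The labels were checked first. Srf was 12.15 on the Srf array and 8.57 on the EGFP array, and this log2 difference of 3.58 was the largest among all 19261 genes compared. The probe set cannot tell introduced Srf from the cell's own. The array medians were 5.84 for Srf and 5.88 for EGFP. Values near these medians are called dim here, because the table carries no call of whether a gene was detected. Over all genes compared the median difference was -0.01 with an SD of 0.24, and probe sets of the same gene scattered about their common mean by an SD of 0.20, over 865 genes with exactly 2 of them. Of 12 hepatoblast and hepatocyte markers with a probe set, 0 lay under the medians of both arrays, with Krt8 at 12.42 and Hnf4a at 9.81 on the Srf array and at 12.29 and 10.18 on the EGFP array. Dlk1, a surface marker of hepatoblasts, was dim (6.04 on the Srf array and 6.18 on the EGFP array). These 12 markers themselves differed, with a median of -0.23, and 3 were lower and 1 higher by at least 1.5-fold. Under the medians of both arrays lay 7 of 9 endothelial markers, 6 of 8 white blood cell and macrophage markers, 5 of 10 stellate cell markers and 2 of 4 erythroid markers. For mesothelial (liver surface) markers this was only 1 of 8 and for bile duct markers 1 of 6. The mesothelial marker Msln was bright, at 11.93 on the Srf array and 11.46 on the EGFP array. So was the bile duct marker Krt19, at 11.47 on the Srf array and 11.65 on the EGFP array.

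In outline, the data showed more Igfbp3 and more Igf1r signal on the Srf array, less Igfbp2, and small differences at Igf2 and Igf2r. Of the 10 genes, Igfbp3 and Igf1r were at least 1.5-fold higher, and 1.55% of all genes compared were higher by that much. The study states a 1.5-fold threshold in hepatoblasts for genes lowered by Srf overexpression, and here it was used in both directions. Igfbp2 was at least 1.5-fold lower, where 1.27% of all genes compared were, and 2.82% of all genes passed the threshold in either direction. The median difference of the 10 genes was -0.02, beside -0.01 for all genes, with 4 above 0 and 6 below (Igf2 and Igf2r change sign with the scaling), so the axis did not move one way as a group. None reached 2-fold (0 of 10), which 0.343% of all genes compared did on the higher side, 0.317% on the lower side and 0.659% on either.

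**Figure D1:**
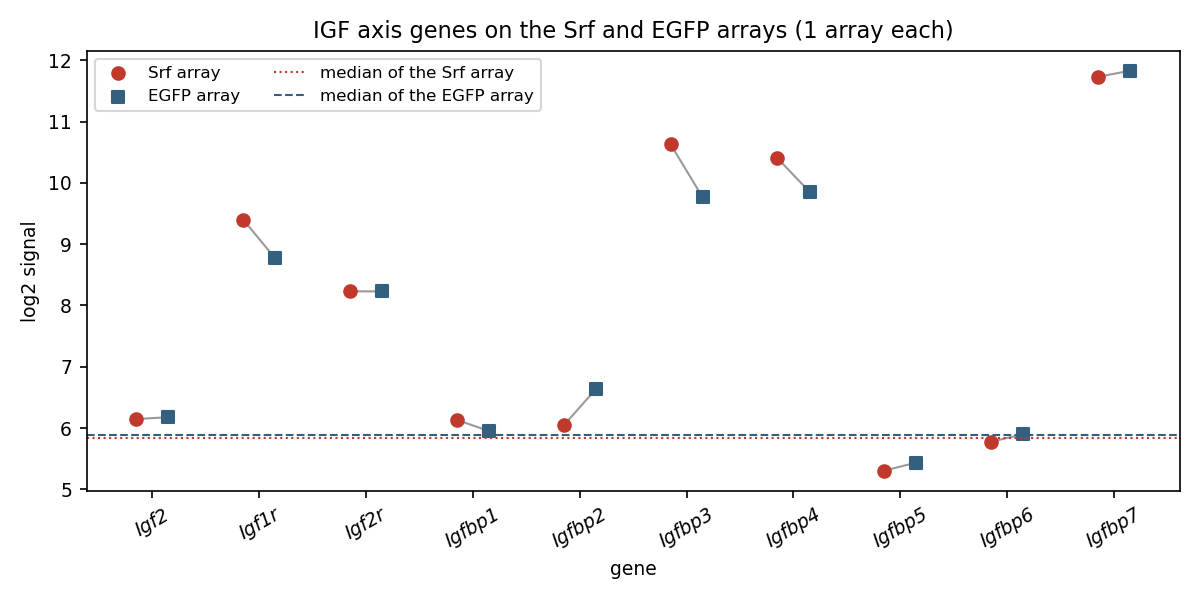
Log2 signal (vertical axis) of the 10 IGF axis genes on the Srf array (circles) and the EGFP array (squares), 1 array each with a line joining the values of a gene, and the array medians as horizontal lines. Igfbp3, Igfbp4 and Igf1r slope down from Srf to EGFP, Igfbp2 slopes up, and Igf2, Igfbp1, Igfbp5 and Igfbp6 lie close to the medians of 5.84 and 5.88.

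The stretches of DNA just upstream of these genes are shown for the members whose signal differed most, so that the sequence can be read beside the value. All sequences are from RefSeq, build GRCm38.p6, and run 5′ to 3′ on the strand of the gene. Each window covers 250 bases before the annotated start of transcription and 50 after it, 14 windows covered the 10 genes because Igf2 has 4 and Igfbp2 has 2, and 32851 windows of the same length were available for all genes. Capitals mark TATATA in Igfbp3 (chr11:7213874-7214173, minus strand), and GGGCGG, the GC box bound by Sp1, in Igf1r (chr7:67952007-67952306, plus strand) and in the window of Igfbp2 that lies at chr1:72824230-72824529, plus strand.
Igfbp3: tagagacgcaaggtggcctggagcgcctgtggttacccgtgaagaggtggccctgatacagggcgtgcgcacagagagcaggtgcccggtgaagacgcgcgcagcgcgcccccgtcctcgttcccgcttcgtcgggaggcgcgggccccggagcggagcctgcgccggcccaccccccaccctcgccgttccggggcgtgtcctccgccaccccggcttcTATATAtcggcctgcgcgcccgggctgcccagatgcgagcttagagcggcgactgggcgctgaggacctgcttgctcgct
Igf1r: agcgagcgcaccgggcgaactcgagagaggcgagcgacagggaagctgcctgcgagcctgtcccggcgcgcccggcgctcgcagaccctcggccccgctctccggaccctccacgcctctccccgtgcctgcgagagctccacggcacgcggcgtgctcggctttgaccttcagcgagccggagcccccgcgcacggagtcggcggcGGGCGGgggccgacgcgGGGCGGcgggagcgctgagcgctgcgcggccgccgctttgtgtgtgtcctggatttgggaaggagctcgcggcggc
Igfbp2: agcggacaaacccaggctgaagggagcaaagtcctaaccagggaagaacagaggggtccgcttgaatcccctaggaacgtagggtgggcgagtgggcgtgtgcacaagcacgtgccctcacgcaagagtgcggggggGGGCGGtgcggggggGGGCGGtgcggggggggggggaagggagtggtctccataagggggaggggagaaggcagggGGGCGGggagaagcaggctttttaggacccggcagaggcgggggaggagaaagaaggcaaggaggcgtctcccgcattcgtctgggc
The GC box was found in 35.7% of all windows, counting either strand and overlapping matches, 2 times in the Igf1r window and 3 times in this Igfbp2 window. TATATA, a motif picked after the Igfbp3 sequence had been read, was found in 5.67% of all windows. These windows were rich in G and C, at 71.7% for Igfbp3, 76.0% for Igf1r and 67.0% for Igfbp2, beside a median of 52.7% over all windows.

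Shorter stretches are given for members with a site of known interest. The Igfbp4 stretch holds TATAAA, the classical TATA box, in capitals (chr11:99041184-99041253, plus strand). The Igfbp1 stretch holds CAAAACA in capitals (chr11:7197657-7197716, plus strand), the core of the insulin response sequence through which Foxo factors drive this gene. The Igf2 stretch, from 1 of its 4 windows, holds a CArG box in capitals (chr7:142661392-142661451, minus strand), the element that Srf binds.
Igfbp4: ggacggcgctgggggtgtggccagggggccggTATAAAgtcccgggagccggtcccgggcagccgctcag
Igfbp1: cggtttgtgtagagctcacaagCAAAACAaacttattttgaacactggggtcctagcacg
Igf2: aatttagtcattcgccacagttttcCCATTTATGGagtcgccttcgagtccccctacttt
Counting both strands, TATAAA was found in 13.6% of all windows, CAAAACA in 6.28% and the CArG box in 1.63%. The CArG box of Igf2 began at position -155 and the CAAAACA of Igfbp1 at position -108, with the annotated start at 0. Neither Igfbp3 nor Igf1r nor Igfbp2 held a CArG box in the windows searched. A match of letters is a description only, and Srf binding was not measured in these files.

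The ligand came first. Igf2 was 6.15 on the Srf array and 6.18 on the EGFP array, a difference of -0.03. Both values were dim, in a cell type whose tissue of origin is a main source of Igf2. Whether the CArG box of Igf2 is used in these cells was not tested. The sign of this difference turned under centring on the median (0.01), quantile normalization (0.00) and lowess centring (0.01), so Igf2 has no direction here. Igf1, the ligand of postnatal growth and not one of the 10 genes, was 6.79 on the Srf array and 6.22 on the EGFP array, a difference of 0.57 that stayed just under 1.5-fold as deposited (1.48-fold higher). Both values of Igf1 were also within 1 log2 unit of the array medians. Ins2, an insulin gene next to Igf2, was at the dim end, at 4.88 on the Srf array and 4.85 on the EGFP array, below the 20th percentile of each array (4.92 for Srf and 4.94 for EGFP), and was not compared.

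Of the receptors, Igf1r was 9.40 on the Srf array and 8.77 on the EGFP array. The difference of 0.63 amounts to 1.55-fold higher, and 97.8% of all genes compared had a smaller absolute difference. Among the 4494 genes with a mean log2 level from 8 to 10, as for Igf1r, the differences had an SD of 0.28 and 2.38% were at least 1.5-fold higher. Igf2r was 8.23 on both arrays, and its difference of 0.00 was smaller in size than that of nearly every other gene (0.353% of genes compared had a smaller one), with a range of -0.03 to 0.04 over the alternatives and so no direction. The receptor that signals was thus higher on the Srf array and the receptor that clears Igf2 was level. The insulin receptor gene Insr, whose product can pair with that of Igf1r, had a difference of 0.07, at 8.20 on the Srf array and 8.12 on the EGFP array. Insrr, the orphan receptor of the same family, was dim at 5.32 on the Srf array and 5.40 on the EGFP array.

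The binding proteins split. Igfbp3 was 10.63 on the Srf array and 9.76 on the EGFP array, a difference of 0.87 or 1.82-fold, the largest of the 10 genes and number 94 from the top of the 19261 genes compared. Among the 1248 genes with a mean level of 10 or more the SD of the differences was 0.31, with 2.56% higher and 2.8% lower by at least 1.5-fold. Igfbp4, which restrains IGF action and releases the ligand when cut by pappalysin, was 10.40 on the Srf array and 9.85 on the EGFP array. Its difference of 0.55 (1.46-fold) lay just outside the threshold of 0.58, as the nearest of the genes that missed it. Igfbp7, whose product binds IGFs only weakly and is also secreted by vessels and stroma, had a difference of -0.10, at 11.73 on the Srf array and 11.83 on the EGFP array.

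Igfbp2, an abundant binding protein of the fetal circulation, was 6.05 on the Srf array and 6.64 on the EGFP array. The difference of -0.59 (1.51-fold lower) lay just inside the threshold and its Srf value was near the array median. Among the 6298 genes with a mean level from 6 to 8 the SD of the differences was 0.27, and 1.79% were lower by at least 1.5-fold, with 2.1% higher. This call was lost under 3 of the 4 other scalings, with differences of -0.55 after centring on the median, -0.57 after quantile normalization and -0.55 after lowess centring.

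The remaining binding proteins were dim. Igfbp1, the insulin-regulated binding protein whose window is shown above, was 6.14 on the Srf array and 5.95 on the EGFP array, a difference of 0.18. Igfbp5, a binding protein of bone, muscle and mammary gland, was 5.31 on the Srf array and 5.44 on the EGFP array, with a difference of -0.13. Igfbp6, which prefers Igf2 over Igf1, was 5.78 on the Srf array and 5.90 on the EGFP array, with a difference of -0.12. The Igfbp5 and Igfbp6 values sat below or about the medians of their arrays, where 7221 genes with a mean under 6 had an SD of 0.17.

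The genes that differed were not neighbours of each other. By the order of coding genes in RefSeq, Igfbp3 and Igfbp1 are adjacent on chromosome 11, and Igfbp2 and Igfbp5 are adjacent on chromosome 1. Within the chromosome 11 pair the difference was 0.87 for Igfbp3 and 0.18 for Igfbp1, and within the chromosome 1 pair it was -0.59 for Igfbp2 and -0.13 for Igfbp5. In each pair 1 of the genes was past 1.5-fold as deposited. The other, Igfbp1 or Igfbp5, was dim and differed by less than the SD of 0.20 between probe sets of a gene. That the signs agreed within each pair is therefore not informative. Igf1r and Igf2 both lie on chromosome 7 but are not adjacent.

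**Figure D2:**
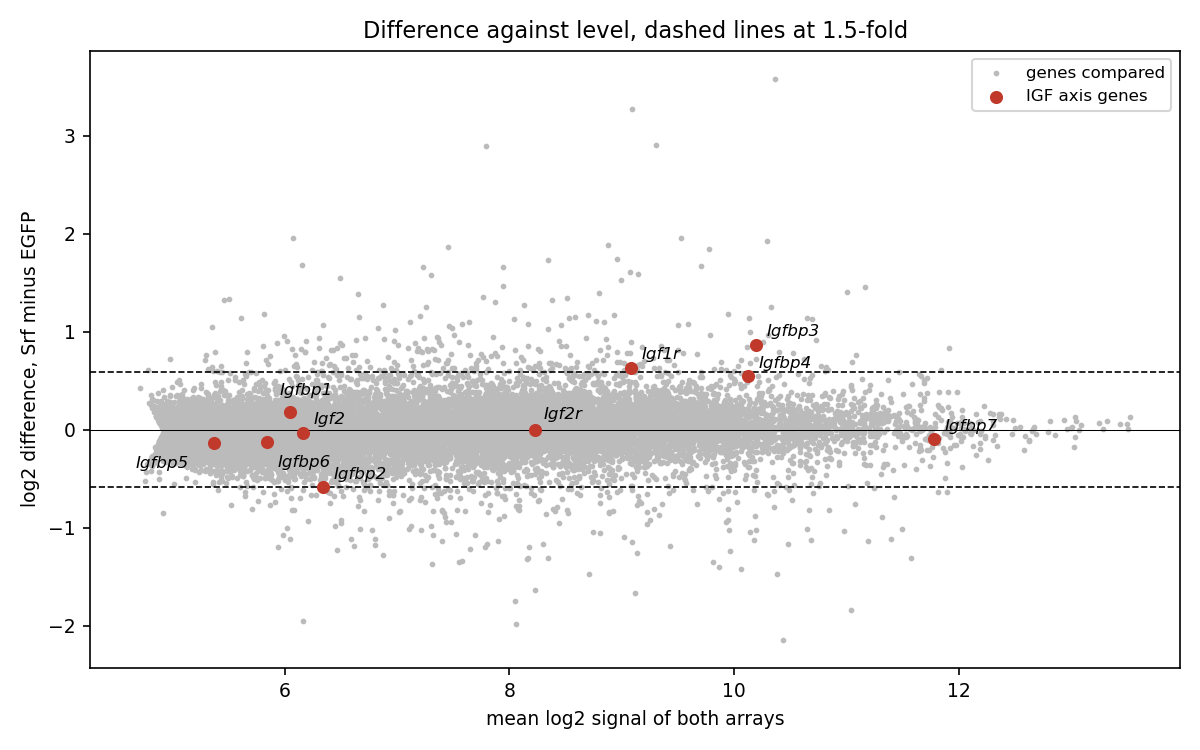
Log2 difference, Srf minus EGFP (vertical axis), against the mean log2 signal of both arrays (horizontal axis), with the 19261 genes compared as small points and the 10 IGF axis genes as large named points. Igfbp3 (0.87) and Igf1r (0.63) lie above the upper dashed line at 1.5-fold, Igfbp4 (0.55) just under it, and Igfbp2 (-0.59) on the lower one.

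Scaling moved these values little. Under the 4 other scalings, Igfbp3 ranged from 0.84 to 0.91 and Igf1r from 0.59 to 0.67, and both stayed at least 1.5-fold higher. The 4 other choices of filter and probe set could not change the difference of a member, as each had 1 probe set, so they are no check on these values. Igfbp4 ranged from 0.52 to 0.59 and reached 1.5-fold under centring on the median. Which side of 1.5-fold Igfbp2 and Igfbp4 fell on thus depended on shifts smaller than 0.1 on the log2 scale. Igf1r was also close to the threshold of 0.585, with a lowest value of 0.592 under quantile normalization.

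**Figure D3:**
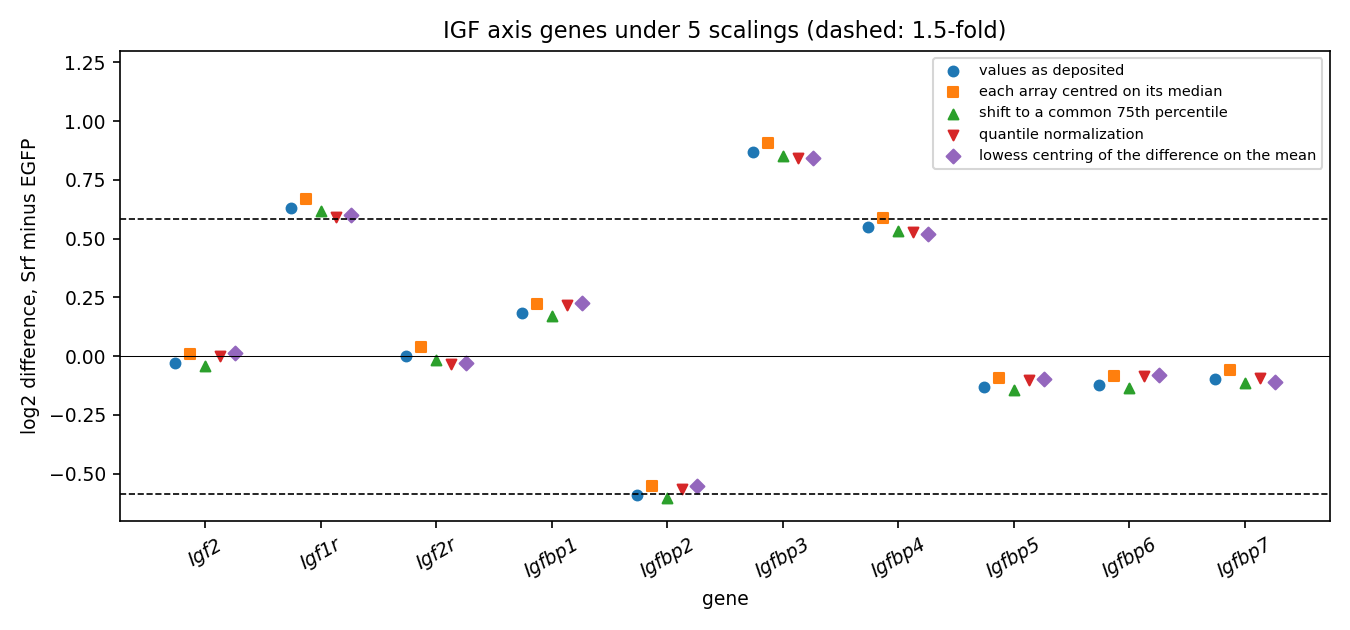
Log2 difference, Srf minus EGFP (vertical axis), of each IGF axis gene under 5 scalings of the arrays, with dashed lines at 1.5-fold. Igfbp3 (0.84 to 0.91) and Igf1r (0.59 to 0.67) lie above the upper line under all 5, Igfbp2 (-0.60 to -0.55) straddles the lower line, and Igf2 and Igf2r lie about 0.

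Markers of mesothelium, the lining of the liver surface, were also read, although 1 array per group cannot show whether genes vary together. Of 8 mesothelial markers, Upk1b (1.96) and Krt14 (0.82) passed 1.5-fold upward and 0 downward, beside 1.55% and 1.27% of all genes compared. Krt14 was dim on the EGFP array (5.73). The list median was 0.46, with 7 markers above 0 and 1 below. The mean log2 level of the list was 7.84 on the Srf array and 7.32 on the EGFP array. Wt1, a defining transcription factor of that lining, was 6.73 on the Srf array and 6.98 on the EGFP array. Stellate cells also make binding proteins, and their receptor gene Pdgfrb was 6.78 on the Srf array and 7.86 on the EGFP array, while Des was at 5.79 on the Srf array and 5.88 on the EGFP array. Of 9 stellate markers compared, only Pdgfrb passed 1.5-fold, 3 lay above 0 and 6 below, and the median was -0.02. Over 10 stellate markers the mean log2 level was 5.88 on the Srf array and 5.98 on the EGFP array. Liver cell markers differed beside Igfbp2, a product of hepatocytes. Apoa1, an apolipoprotein gene, was 8.47 on the Srf array and 9.57 on the EGFP array (-1.10), Cebpa, a hepatocyte transcription factor gene, differed by -0.91 and Ttr, the gene of a plasma carrier, by -0.81, whereas the fetal gene Afp differed by 0.84. The mean log2 level of the 12 markers was 9.02 on the Srf array and 9.25 on the EGFP array. Of 5 bile duct markers compared, Epcam was past 1.5-fold on the lower side (-1.14) and Krt7 on the higher side (0.60), with a median of -0.32. In bulk RNA, a change in the number of cells of a type and a change in RNA per cell cannot be told apart, and the part of such cells in the differences of Igfbp3, Igfbp4 and Igfbp2 was not tested.

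The question was then whether the partners of the 10 genes differed too. The lists hold 138 genes in 11 groups, some in several, of which 122 could be compared. Of these, 5 (4.10%) passed 1.5-fold on the higher side and 9 (7.38%) on the lower side, beside 1.55% and 1.27% of all genes compared, and their median difference was 0.00. The lists, like the 10 genes, were chosen with earlier results of these data known, so shares above those of all genes only describe them.

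**Figure D4:**
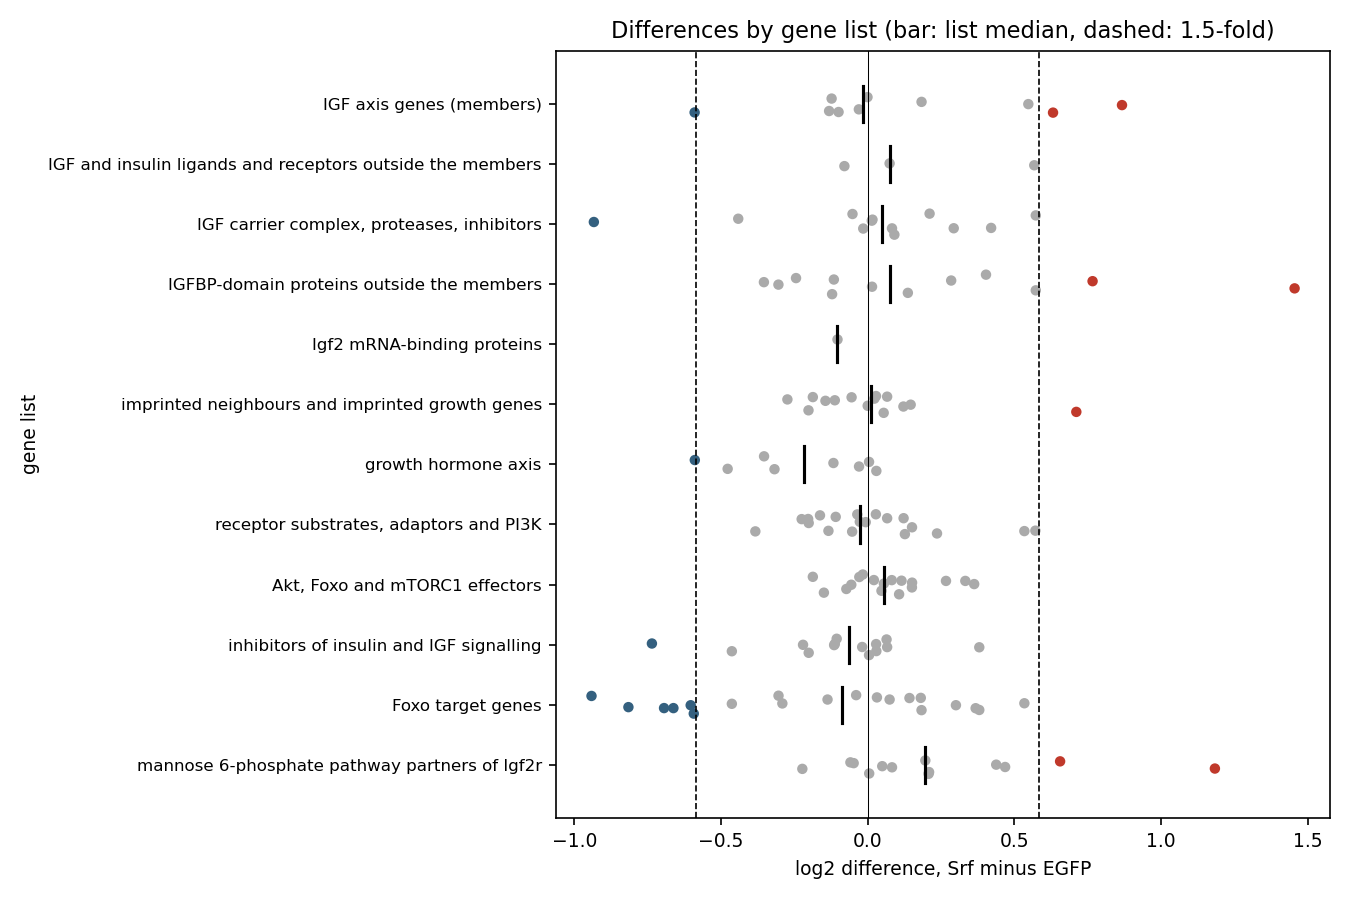
Log2 difference, Srf minus EGFP (horizontal axis), of each gene compared in the 10 IGF axis genes and in 11 lists of partner genes, with the list median as a bar and dashed lines at 1.5-fold. The lists of adaptors and of Akt effectors have no gene past a dashed line, whereas the Foxo target list has 6 of 20 beyond the lower one.

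Carriers and proteases set the fate of the binding proteins outside the cell. Of 12 carriers, proteases and inhibitors compared, 1 passed 1.5-fold, on the lower side, and the list median was 0.05. That gene was Mmp2, a gelatinase that can cleave binding proteins, at 5.74, a dim value, on the Srf array and 6.67 on the EGFP array (1.91-fold lower). Pappa, the pappalysin that cuts Igfbp4, was 5.60 on the Srf array and 6.04 on the EGFP array, and its difference of -0.44 did not reach 1.5-fold. Proteases of binding proteins with the highest differences were Htra1, a secreted serine protease, at 9.11 on the Srf array and 8.54 on the EGFP array (0.57), and Adam12, which cleaves Igfbp3 and Igfbp5, at 8.53 on the Srf array and 8.11 on the EGFP array (0.42). Igfals, which completes the serum complex of Igfbp3, was dim (5.28 on the Srf array and 5.33 on the EGFP array). The Srf array had more Igfbp3 and Igfbp4 signal beside a lower, dim Pappa value and higher Htra1 and Adam12 values. Cleavage of binding proteins was not measured.

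Among other genes for proteins with an IGFBP-like amino-terminal domain, the largest differences were those of Ccn matricellular genes. Of 12 compared, 2 passed 1.5-fold, both higher, with a median of 0.08. Ccn1, a known Srf target, was 11.89 on the Srf array and 10.44 on the EGFP array (1.46), and Ccn4 was 8.04 on the Srf array and 7.27 on the EGFP array (0.77). Ccn2 averaged 8.68 on the Srf array and 8.28 on the EGFP array over probe sets with differences of 0.74 and 0.07, of which the brighter gave 0.74. The lowest values of the group were those of Igfbpl1 (-0.35) and Kazald1 (-0.30), both dim.

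Imprinted genes were taken next, since Igf2 and Igf2r are both imprinted. Of 14 imprinted genes compared, 1 was at least 1.5-fold higher and 0 were lower by that much. It was Phlda2, a growth-restraining gene of the placenta, at 7.81 on the Srf array and 7.10 on the EGFP array (1.64-fold higher). Their median was 0.01, and Peg3, a zinc finger gene, was 10.69 on both arrays. Mest, another paternally expressed gene, had a difference of -0.11, and the lowest were Rasgrf1 (-0.27) and Cdkn1c (-0.20), a cyclin-dependent kinase inhibitor gene expressed from the maternal allele. Second highest was Peg10, at 0.15. Airn, the noncoding RNA that silences Igf2r on the paternal allele, was 6.23 on the Srf array and 6.21 on the EGFP array, so this RNA, like Igf2r, was at about the same level on both arrays. Of the proteins that bind Igf2 mRNA, Igf2bp3 was 9.91 on the Srf array and 10.01 on the EGFP array.

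The growth hormone axis drives Igf1 in the liver after birth. Of 8 genes compared, 1 passed 1.5-fold, on the lower side, and the median was -0.22. Jak2, the kinase of the growth hormone receptor, was 9.45 on the Srf array and 10.04 on the EGFP array (-0.59), and was under 1.5-fold after centring on the median (-0.55). Stat5a, its downstream transcription factor, was 6.80 on the Srf array and 7.27 on the EGFP array (-0.48), whereas Ghr, the receptor, differed by -0.03. The highest were Socs1 (0.03) and Socs3 (0.00), feedback inhibitors of Jak kinases. The negative median of this list stood beside a positive difference for Igf1.

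Signalling inside the cell was covered by 3 lists. Of 19 substrates, adaptors and PI3 kinase subunits and of 17 Akt, Foxo and mTORC1 effectors, 0 passed 1.5-fold in either direction, with medians of -0.03 and 0.06. Closest to the threshold were Pik3cb, a catalytic subunit of PI3 kinase, at 9.29 on the Srf array and 8.72 on the EGFP array (0.57), and Irs2, the main docking protein of the insulin receptor in liver with Irs1, at 8.96 on the Srf array and 8.43 on the EGFP array (0.53). A further Irs2 probe set, shared with 9530052E02Rik, had a difference of 0.01, and with it kept Irs2 was 0.27. Pik3cb passed 1.5-fold after centring on the median (0.61). Irs1 averaged 0.12 over probe sets that disagreed in sign (0.37 and -0.12), and the regulatory subunit genes Pik3r1 and Pik3r3 were the lowest of their list, at -0.38 and -0.22. Akt1 had a difference of 0.15, Foxo1 of 0.02, Mtor of 0.33 and Eif4ebp2, a translation repressor under mTORC1, of 0.36. The lowest effectors were Foxo4 (-0.19) and Foxo6 (-0.15). Of 14 inhibitors of the pathway, 1 was lower by 1.5-fold, namely Ddit4, an inhibitor of mTORC1, at 9.66 on the Srf array and 10.40 on the EGFP array (1.67-fold lower). Pik3ip1, a PI3 kinase inhibitor and also a Foxo target, had a difference of -0.46, and the highest were Trib1 at 0.38 and Grb10, an imprinted adaptor that restrains both receptors, at 0.07.

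The list with the most genes past the threshold was that of Foxo targets, genes that Foxo transcription factors switch on when insulin or IGF signalling is low. Of 20 compared, 6 passed 1.5-fold on the lower side and 0 on the higher side, beside 1.27% and 1.55% of all genes, while the list median was -0.09 with 9 genes above 0. At mean levels from 6 to 8 and from 8 to 10, 1.79% and 1.82% of genes were lower by that much. The list was chosen with earlier results of these data known, so its count is a description and not a test of Foxo targets. Txnip, which restrains glucose uptake, was 9.46 on the Srf array and 10.40 on the EGFP array (1.92-fold lower), and Pdk4, which limits entry of pyruvate into the citric acid cycle, was 8.10 on the Srf array and 8.92 on the EGFP array (1.76-fold lower). Ccng2, an unconventional cyclin gene of arrested cells, was 7.01 on the Srf array and 7.70 on the EGFP array. Ppargc1a, a coactivator of mitochondrial and gluconeogenic genes, was 5.91, a dim value, on the Srf array and 6.57 on the EGFP array. Cdkn1b, a cyclin-dependent kinase inhibitor, and Sesn1, a sestrin, had differences of -0.60 and -0.59. These last both fell short of 1.5-fold after centring on the median, which left 4 of 20 lower. The list was not uniform, since the liver targets Pck1 and G6pc, enzymes of gluconeogenesis, were dim with differences of 0.03 and 0.18, and Irs2, itself a Foxo target, was higher by 0.53. Igfbp1, the classical Foxo target among the 10 genes, had a difference of 0.18 and so did not share the lower values of Txnip and Pdk4. Foxo activity was not measured in these files.

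**Figure D5:**
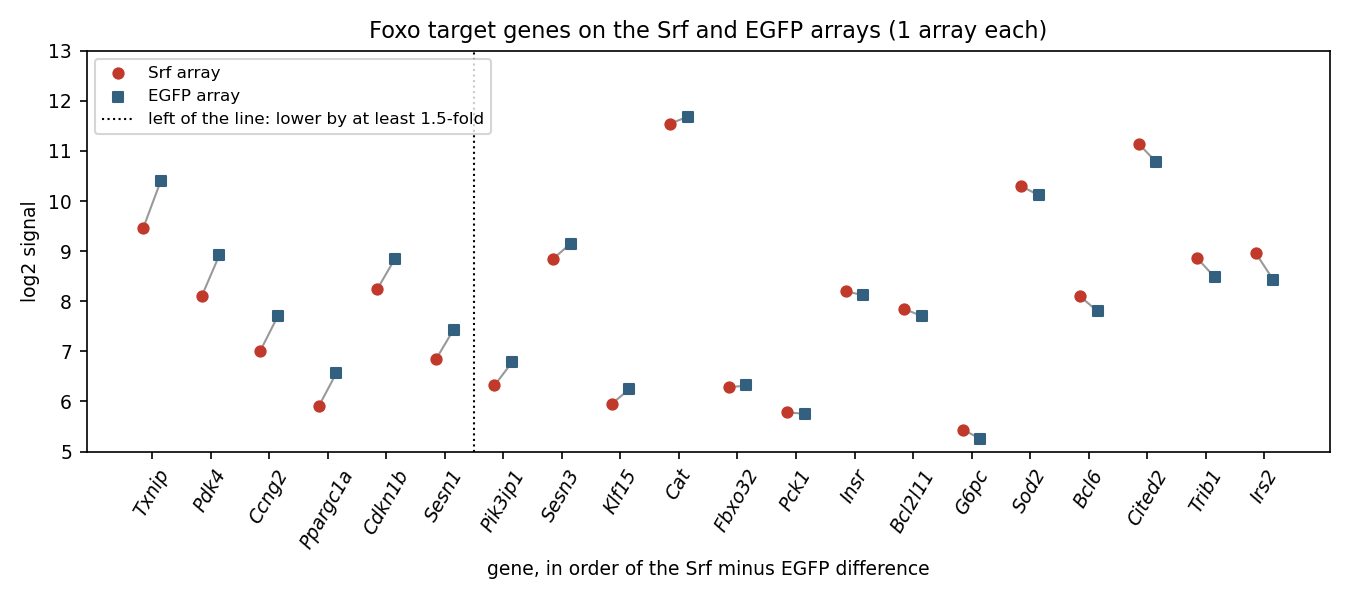
Log2 signal (vertical axis) of the 20 Foxo target genes on the Srf array (circles) and the EGFP array (squares), 1 array each, in order of their difference (horizontal axis). The 6 genes left of the dotted line, from Txnip (9.46 and 10.40) to Sesn1, were at least 1.5-fold lower on the Srf array, and 9 genes at the right were higher by less than 1.5-fold.

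Igf2r also carries lysosomal enzymes. Of 13 genes of that route or for other partners of Igf2r compared, 2 passed 1.5-fold, both higher, and the median was 0.20. Plaur, the urokinase receptor, whose product can bind that of Igf2r, was 10.54 on the Srf array and 9.36 on the EGFP array (2.27-fold higher). Hexa, a lysosomal hexosaminidase subunit, was 6.72 on the Srf array and 6.06, a dim value, on the EGFP array (1.58-fold higher). M6pr, the smaller mannose 6-phosphate receptor, had a difference of 0.21, Ctsl of 0.47 and Nagpa, which completes the mannose 6-phosphate tag, of 0.44. Gga2, an adaptor for both receptors, was the lowest at -0.22, before Gnptg (-0.06), a subunit of the enzyme that begins the tag. Of these 13 genes, 10 lay above 0, while Igf2r itself lay at 0.00.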

How the data were processed

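Total RNA of the Srf and EGFP cultures was labelled with a whole-transcript kit, whose version the sources name differently, and read on 1 Affymetrix Mouse Gene array per group. Values deposited by the authors were used as log2 signals of probe sets. Since no log base is named, it was inferred from the span of values (4.28 to 13.63), and all folds rest on it. Percentile shifts, exclusion of low signals and GeneSpring are named in the methods, and probe summarisation is not stated.

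Symbols came from the platform annotation, an older source: 23521 of 34351 probe sets had 1 symbol, 1820 several and 9010 none. All 10 IGF genes matched RefSeq (GRCm38.p6) by Entrez identifier under the same symbol. Log2 values were averaged over the probe sets of a gene. Genes at or above the 20th percentile of either array were compared, and all 10 IGF genes passed. Igfbp5 did not pass a filter at the array median.

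Genes were counted past 1.5-fold (0.58 on the log2 scale) on the Srf array minus the EGFP array. Without replicates there was no test, and genes are not replicates. Counting was checked on simulated data with 2-fold changes and a smaller spread than that between these arrays, which is no check on calls near 1.5-fold. Named were the 10 genes, Srf, Igf1, Insr, Irs1, Irs2, all partner genes past 1.5-fold, and the 2 highest and 2 lowest of each list. Others were named after their values were seen. Members and lists were chosen with earlier results of these data known. Alternatives were median centring, alignment at the 75th percentile, quantile normalization, a lowess fit (span 0.3), no filter or one at the median, 2-fold as threshold, only the brightest probe set, and inclusion of probe sets with several symbols. Python 3.11.15, pandas 2.3.3, numpy 2.4.6 and statsmodels 0.14.6 were used.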

Additional observations from a re-analysis of the deposited data

How the results depend on the processing

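No paired analysis was possible because each group had 1 array, and for the same reason no replicate was left out. Signal over background was not judged for the dim genes Igf2, Igfbp1, Igfbp5 and Igfbp6, as no detection calls were used. No scaling moved the median of all genes by over 0.1 on the log2 scale. Over the 9 alternatives, 176 values were set beside their main value, some of them differences of a gene and some counts of genes. Of these, 158 were taken as the same. For a difference this meant the same side of 1.5-fold and a shift under 0.20, and for a count a value within 1.5 times the main one. Genes could thus cross 1.5-fold within such a count, as with 4 Foxo targets lower under median centring against 6 as deposited. Many of the 158 were differences that the choice of filter or probe set could not alter. No value past 1.5-fold changed sign. Of the members under it, Igf2 did under median centring (0.01), quantile normalization (0.00) and lowess centring (0.01), and Igf2r did under median centring (0.04).

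The difference of Igfbp2 was -0.55 with each array centred on its median, -0.57 with quantile normalization and -0.55 with lowess centring, so the members lower by 1.5-fold numbered 0 under each of these, against 1 as deposited. Igfbp4 was 0.59 with each array centred on its median, past the threshold. The count of members higher then was 3, within 1.5 times the main count of 2. Igf1, outside the members, was past 1.5-fold under centring on the median (0.61), quantile normalization (0.59) and lowess centring (0.60). Partner genes higher numbered 8 with each array centred on its median, against 5 as deposited, as Igf1, Htra1 and Pik3cb were then called. With the brightest probe set of a gene Ccn2 (0.74) and Socs2 (-0.69) were past 1.5-fold.

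At a 2-fold threshold 0 members were higher and 0 lower, 2 partner genes were higher (Ccn1 and Plaur) and 0 lower, 0 Foxo targets were lower, and of all genes compared 66 were higher and 61 lower.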

Other observations

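Some partner genes were measured only by probe sets that carry several symbols and were left out of the counts. The probe set of H19 and Mir675, the maternally expressed neighbour of Igf2, had a log2 difference, Srf minus EGFP, of -0.29. That of Igf2bp1 and Mir3063 was 9.30 on the Srf array and 9.02 on the EGFP array (0.28), and that of Gsk3a and 9130221H12Rik was 9.20 on the Srf array and 9.29 on the EGFP array (-0.09). These 3 genes had no probe set of their own, and none of the 3 differences reached 1.5-fold. Another 6 probe sets with several symbols belonged to genes that also had one of their own, and none of these reached 1.5-fold either. That shared by Txnip and Gm15441 had a difference of -0.48, with the same sign as the probe set that names Txnip alone (-0.94). That shared by Irs2 and 9530052E02Rik had a difference of 0.01, beside 0.53 for the probe set of Irs2 alone.

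For Phlda2, Plaur and Hexa, which were higher on the Srf array, and for Mmp2 and Ddit4, which were lower, each value rests on 1 probe set and 1 array per group. The direction of these 5 differences was the same under every scaling run. That adds no support, since the scalings moved the median of all genes by at most 0.04.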
